A study of Mus musculus with 2 samples.

Results

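Cohesin is the ring-shaped protein complex that holds sister chromatids together and folds chromosomes into loops. The ring is built from SMC1 and SMC3 proteins closed by a kleisin, and a STAG protein binds to the kleisin. Mitotic cells use SMC1A, RAD21 and STAG1 or STAG2, while oocytes also carry the meiotic forms SMC1B, REC8 and STAG3. Meiotic cohesin is put on chromosomes before birth and has to last until separase cuts REC8 at the centromeres in anaphase II, the division that sends a set of chromatids into the second polar body (PB2). Transcripts of 9 cohesin genes of the 10 listed were followed here in PB2 and in the zygote, out of 11262 genes in all. They were taken by gene symbol with no threshold on their values, and are Smc1a, Smc1b, Smc3, Rad21, Stag1, Stag2, Stag3, Wapl and Pds5b. Rec8 was not analysed here.

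The study examined the role of PB2 in the mouse embryo after fertilization, and sequenced RNA to search PB2 for molecules with a possible part in it. Untreated mouse embryos of the strain C57BL/6 (C57BL/6N in the study's methods) were collected from the oviduct and grown in KSOM medium. By those methods, females were superovulated with the hormones PMSG and HCG before mating, and hyaluronidase removed granule cells from the embryos. At the late 1-cell stage, the zona pellucida was removed in acid Tyrode's solution, and PB2 was detached in trypsin by pipetting. PB2s and zygotes were pooled, their poly(A) RNA was amplified as full-length cDNA, and 1 library of each was sequenced, so no spread between samples is known and no test was run. The age of the females was not given in the sources used here. Values are TPM, transcript abundance per unit of gene length on a fixed total per library, deposited with 1 decimal. All rows of the table together sum to 898326 TPM (PB2) and 927063 TPM (zygote), and the number of reads behind them is unknown. These sums differ, so on a fixed total the rows do not hold every gene that was counted. All 8 oocyte markers examined were present in both libraries, with summed levels of 17972.6 TPM (PB2) and 16977.5 TPM (zygote), most of it Oosp1 (10495.6 and 13021.0 TPM). Of these 8 markers 3 passed 2-fold towards PB2 (37.5%, against 18.9% of all genes compared). The median log2 ratio over all 8 was 0.87, against 0.21 for all genes. With the trend on transcript GC content removed, these medians were 0.23 and 0.01. Of 13 cumulus and granulosa cell markers 5 had values, summing to 81.1 and 81.0 TPM in the same order, most of it Cyp19a1 (70.9 and 72.2 TPM). Of 6 sperm markers 2 had values, summing to 22.6 and 20.8 TPM. Fewer transcripts of a gene and a larger share of other transcripts cannot be told apart in such values, and the part of other cells in the levels below was not tested.

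The members lie on 6 chromosomes of GRCm38 in GENCODE M21. Smc3 (ENSMUSG00000024974) is on chr19:53600398-53645833, plus strand, where the longest coding transcript spans 29 exons and 4851 nucleotides, with 1217 codons and a 3′ UTR of 1055 nucleotides. Smc1a (chrX:152016428-152062694, plus strand) and its meiotic paralog Smc1b (chr15:85064689-85131964, minus strand) have 25 exons each, with 1233 and 1248 codons. They differ in the 3′ UTR, which is 885 nucleotides long in Smc1a and 273 in Smc1b. Pds5b has the longest transcript of the members, 7417 nucleotides, and Rad21 the shortest, 3956. No exon of a member overlaps an exon of another gene with a value, and Stag2 shares 28 exon bases with the opposite-strand model Gm37564.

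The libraries were made from poly(A) RNA, so the last 30 bases before the annotated poly(A) site are shown for 5 members. Capitals mark the polyadenylation signal AATAAA, or in Pds5b the element TTTTAT, a binding site of the cytoplasmic polyadenylation factor CPEB. The sequences are the transcript strand of GRCm38 at chrX:152062665-152062694 (Smc1a), chr19:53645804-53645833 (Smc3), chr15:51962240-51962269 (Rad21, minus strand), chr5:138312364-138312393 (Stag3) and chr5:150810661-150810690 (Pds5b), all in the 3′ UTR.
Smc1a: gggtttatctAATAAAtagagcctgaggaa
Smc3: cattcatgtgccataaaatttacccatgta
Rad21: aaggtgagtttctgagcAATAAAagatttg
Stag3: ctttcAATAAAcatgttcagctatctcata
Pds5b: ctcatgtaattatatTTTTATgtgactcaa

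AATAAA stood in the last 30 bases of 6 of the 9 members, against 55.3% of 11221 transcripts of the table. Its common variant ATTAAA was in none of the 9 and in 15.4% of all. Smc3, Smc1b and Pds5b held neither in this window, on the transcript strand. TTTTAT or TTTTAAT was found in the last 100 bases of 1 of the 9, Pds5b, and in 19.8% of all transcripts. These are matches of letters at annotated ends, and which 3′ ends the embryos use was not tested.

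The transcripts of Smc1a, Smc1b, Rad21 and Wapl were at nearly the same TPM in PB2 and in the zygote, Smc3 was about 2-fold higher in PB2, and the low-abundance Stag1, Stag2, Stag3 and Pds5b had lower values in PB2. Of all 11262 genes of the table, 6632 had a higher and 4477 a lower value in PB2. The measure of difference was log2((PB2 TPM + 1)/(zygote TPM + 1)), hereafter the log2 ratio. At a threshold of 2-fold, 1 of the 9 members, Smc3, was higher in PB2, where 18.9% of the 10645 genes compared passed. None of the 9 was at least 2-fold higher in the zygote, where 8.09% of genes passed. The median log2 ratio was -0.14 for the members and 0.21 for all genes compared. With ratios centred on the latter, 13.0% of all genes passed towards PB2 and 12.1% towards the zygote, and the members passing numbered 0 and 3.

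**Figure D1:**
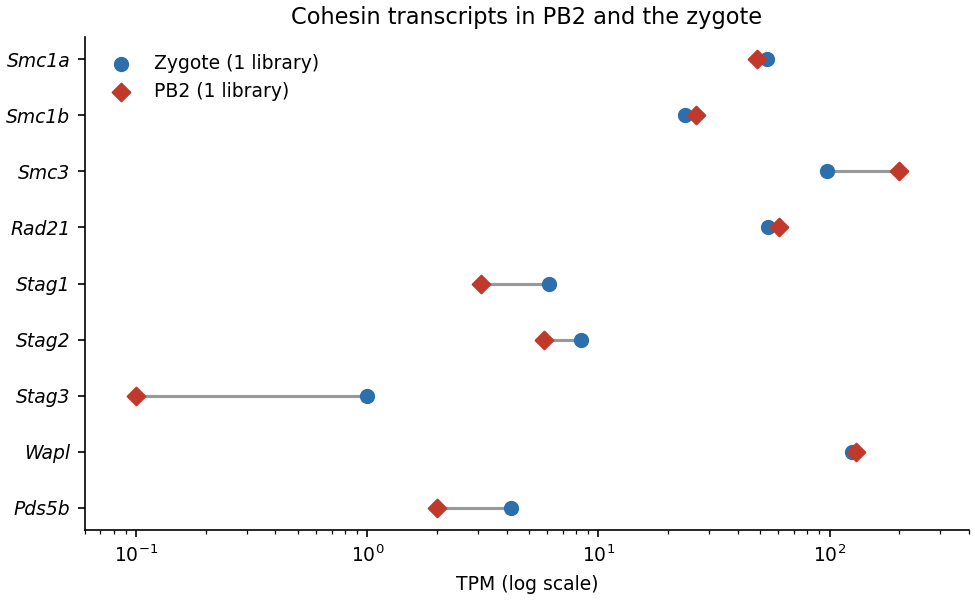
TPM of each cohesin member on a log scale, with a circle for the zygote library and a diamond for the PB2 library, joined by a line. Smc3 lies to the right in PB2 (199.9 against 97.9 TPM), Stag1, Stag2, Stag3 and Pds5b lie to the left, and the symbols of Smc1a, Smc1b, Rad21 and Wapl touch.

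SMC3 is the core subunit shared by mitotic and meiotic rings. Smc3 was measured at 97.9 TPM in the zygote against 199.9 TPM in PB2, a ratio of 2.04 and a log2 ratio of 1.02. It was the most abundant member in PB2, above 93.7% of the genes of the table, and the next after Wapl in the zygote, above 88.4%. Its log2 ratio lies just past the threshold, and 17.9% of all genes compared had a larger one. It was 0.81 when centred on the median of all genes and 1.23 when the trend on GC content was removed, so whether Smc3 counts as 2-fold depends on that choice while its direction does not.

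The SMC1 subunits, which pair with SMC3 at the hinge, did not show that shift. Smc1a, the mitotic form, was measured at 53.6 TPM in the zygote against 48.6 TPM in PB2, for a log2 ratio of -0.14. Smc1b, the meiotic form, was measured at 23.6 TPM in the zygote against 26.4 TPM in PB2, for a log2 ratio of 0.16 that became -0.05 when centred. Smc1b thus made up 30.6% of the SMC1 transcripts in the zygote and 35.2% in PB2. Such shares are taken within a library, so they do not depend on its scaling. The rounding of the table allows 30.5% to 30.6% and 35.1% to 35.3%, an interval that covers rounding only and neither counting nor sampling error. In both libraries the mitotic form was the more abundant of the paralogs.

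RAD21 is the kleisin of mitotic cohesin. Rad21 was measured at 54.3 TPM in the zygote against 60.4 TPM in PB2, for a log2 ratio of 0.15 that became -0.06 when centred. Its level was close to that of Smc1a in the zygote (53.6 TPM) and above it in PB2 (48.6 TPM). Rad21l, the other meiotic kleisin gene, is on the list of regulators and related forms and was far lower, with 8.2 TPM in the zygote against 2.3 TPM in PB2. It amounted to 13.1% of the summed Rad21 and Rad21l transcripts in the zygote and 3.67% in PB2.

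The STAG genes, whose proteins bind the kleisin and help place cohesin on chromatin, were the lowest of the ring subunits and were each lower in PB2. Stag2 was measured at 8.4 TPM in the zygote against 5.8 TPM in PB2, for a log2 ratio of -0.47. Stag1 was measured at 6.1 TPM in the zygote against 3.1 TPM in PB2, for a log2 ratio of -0.79. Stag3, the meiotic form, was measured at 1.0 TPM in the zygote against 0.1 TPM in PB2, the smallest value above 0 that the table can hold. Stag3 met the filter of 1 TPM through its zygote value alone. The zygote kept the higher value for each of the 3, as it did for 4477 of the 11262 genes of the table. None of the 3 reached 2-fold on the scale with the pseudocount of 1. That pseudocount compresses low values: the log2 ratio of Stag3 was -0.86 with it and -3.20 with a pseudocount of 0.01. Rounding alone allows a share of Stag3 among STAG transcripts between 6.11% and 6.80% in the zygote and between 0.552% and 1.68% in PB2. With the GC trend removed the log2 ratio of Stag2 was -0.04, those of Stag1 and Stag3 were -0.56 and -1.11.

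WAPL opens the ring and releases cohesin from chromosomes together with PDS5 proteins, which also act in the maintenance of cohesion. Wapl had 125.4 TPM in the zygote, the highest of the members there, and 130.3 TPM in PB2. Its log2 ratio of 0.05 became -0.15 when centred, so its direction is not settled by these values. Pds5b was scarce, with 4.2 TPM in the zygote against 2.0 TPM in PB2. Its log2 ratio was -0.79 with the pseudocount of 1, -1.03 with one of 0.1 and -0.50 with the GC trend removed. The paralog Pds5a, from the list of regulators, was lower still, with 1.1 TPM in the zygote against 0.4 TPM in PB2.

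The order of the members was the same in both libraries except at the top, where Smc3 and Wapl changed places. From the highest, the zygote had Wapl, Smc3, Rad21, Smc1a, Smc1b, Stag2, Stag1, Pds5b and Stag3. Without replicates it is not known which neighbours in that order differ beyond their spread. The closest neighbours in the zygote were Rad21 and Smc1a, at 54.3 and 53.6 TPM.

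Set against Smc3 of the same library, every other subunit was lower in PB2 than in the zygote. This direction was fixed by the choice of denominator, because Smc3 had the largest ratio of PB2 to zygote among the members. Only the sizes of the ratios are given here, and their shared direction is no separate result. The SMC1 transcripts together came to 0.789 of Smc3 in the zygote and 0.375 in PB2, and Rad21 to 0.555 and 0.302. The STAG transcripts together came to 0.158 of Smc3 in the zygote and 0.0450 in PB2. Wapl stood above Smc3 in the zygote, with a ratio of 1.28, and below it in PB2, with 0.652. Since Smc3 is the denominator throughout, its own higher value in PB2 enters each of these ratios.

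**Figure D2:**
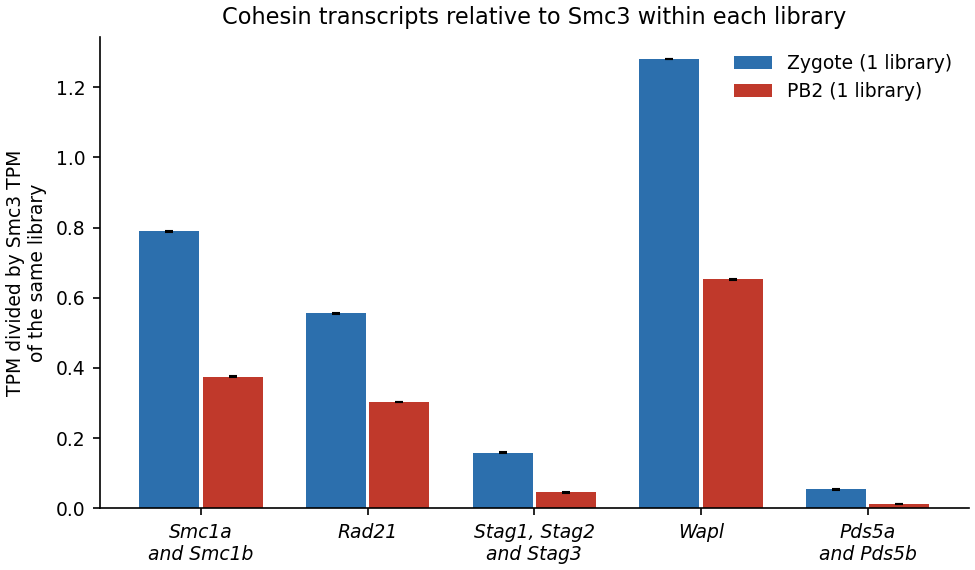
Summed TPM of each group of cohesin transcripts divided by the Smc3 TPM of the same library, for the zygote and PB2, with error bars that show only the interval allowed by rounding to 1 decimal. Each PB2 bar is shorter than its zygote bar, from 0.652 against 1.28 for Wapl to 0.0120 against 0.0541 for Pds5a and Pds5b together. Smc3 had the largest ratio of PB2 to zygote among the members, so that direction follows from the denominator.

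The genes that load, protect and remove cohesin covered a wider range than the members. All 24 regulators and related forms of a hand-written list were compared. At least 2-fold higher in PB2 were 7 of them (29.2%, against 18.9% of all genes), 3 passed towards the zygote (12.5%, against 8.09%) and 14 passed in neither direction. Of the 7, Ppp2r5b had 0.6 TPM in the zygote, below the 1 TPM required in either library. It was compared through its PB2 value alone. The median log2 ratio of the 24 was 0.38, against 0.21 for all genes compared. With the GC trend removed 3 passed towards PB2 (Ctcf, Ppp2r1a and Ppp2r5b) and 3 towards the zygote (Bub1, Meikin and Rad21l), against 9.05% and 10.9% of all genes.

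**Figure D3:**
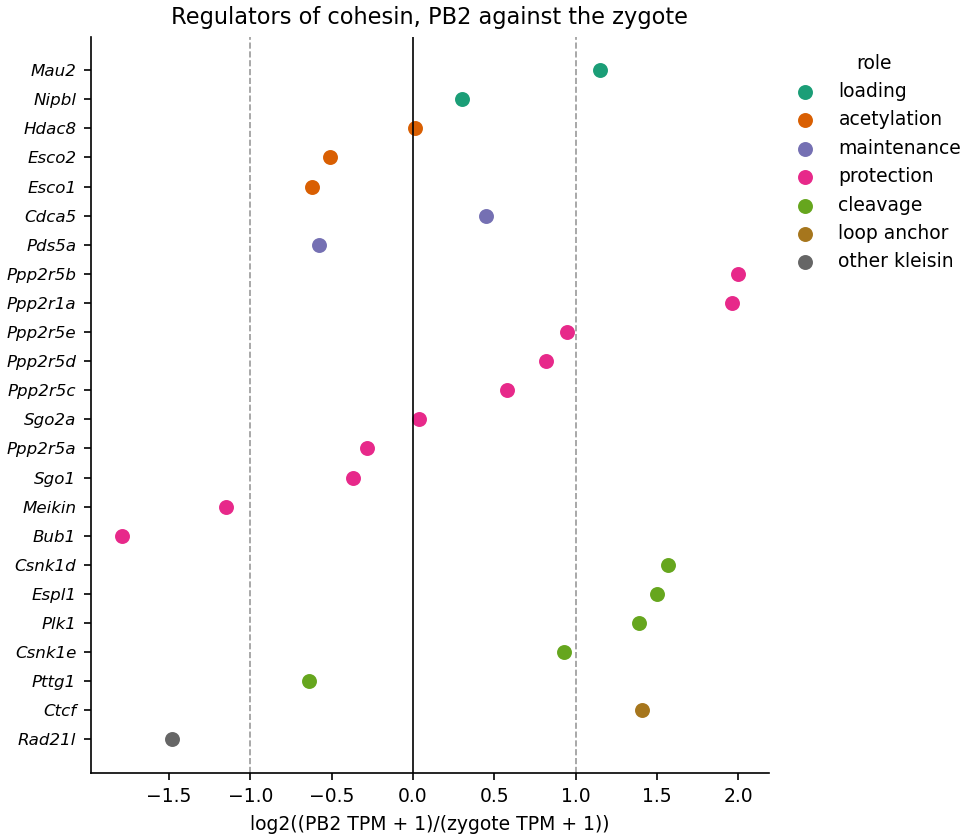
log2 ratio of PB2 over the zygote for 24 cohesin regulators, coloured by role, with dashed lines at 2-fold. Bub1 is farthest to the left at -1.79, and Ppp2r5b is farthest to the right with Ppp2r1a next at 1.96. Of the 5 genes of the cleavage group 4 lie right of 0, where 6632 of the 11262 genes of the table also lie.

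Among the loaders, Nipbl was measured at 40.9 TPM in the zygote against 50.6 TPM in PB2. Its partner Mau2 had 4.1 and 10.3 TPM, a log2 ratio of 1.15. The acetyltransferases that lock SMC3 in its cohesive state were abundant and lower in PB2 without reaching 2-fold. Esco2 was measured at 578.8 TPM in the zygote against 405.8 TPM in PB2, and Esco1 had 319.7 and 207.8 TPM. Hdac8, the deacetylase that reverses this mark, had 8.8 and 8.9 TPM. Cdca5 (sororin), which counters WAPL, was measured at 403.0 TPM in the zygote against 552.5 TPM in PB2. Esco1, Esco2 and Cdca5 each stood above every ring subunit of the same library in TPM, a scale per transcript length.

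Genes that protect centromeric cohesin differed in both directions. Bub1, the kinase that marks centromeres for shugoshin, was measured at 73.9 TPM in the zygote against 20.7 TPM in PB2, for a log2 ratio of -1.79, and 1.11% of genes compared had a smaller one. Meikin, a meiotic kinetochore protein that acts with PLK1, had 28.3 and 12.2 TPM, a log2 ratio of -1.15. Ppp2r1a, the scaffold subunit of protein phosphatase 2A, was measured at 38.4 TPM in the zygote against 152.1 TPM in PB2. Of the 5 genes listed for its B56 regulatory subunits only Ppp2r5b passed, at 0.6 and 5.4 TPM. Its zygote value is near the floor and below the filter of 1 TPM, so it was compared through its PB2 value alone. The log2 ratios of the other 4 ran from -0.28 (Ppp2r5a) to 0.95 (Ppp2r5e). The shugoshins, which recruit this phosphatase to keep REC8 from separase, passed in neither direction: Sgo1 had 87.6 and 67.5 TPM, and Sgo2a had 11.1 and 11.4 TPM. The phosphatase genes here serve many other processes as well.

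For cleavage, Espl1, which encodes separase, was measured at 13.3 TPM in the zygote against 39.5 TPM in PB2, a ratio of 2.97 between the deposited values. Plk1, a kinase that prepares cohesin for removal, had 139.4 and 365.7 TPM, and Csnk1d, a casein kinase with a yeast relative that phosphorylates Rec8, had 1.9 and 7.6 TPM. Pttg1, which encodes the separase inhibitor securin, was the most abundant gene of the list, with 7053.7 TPM in the zygote against 4516.6 TPM in PB2, for a log2 ratio of -0.64. With the GC trend removed the log2 ratios were 0.75 for Espl1, 0.64 for Plk1 and 0.97 for Csnk1d, all under 2-fold. Ctcf, whose protein stops cohesin at loop anchors, had 55.9 and 150.6 TPM, a log2 ratio of 1.41 that was 1.40 with the GC trend removed. Rad21l, the meiotic kleisin given above, had a log2 ratio of -1.48.

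The other SMC complexes were examined for comparison with 16 genes, of which 4 passed towards PB2 (25.0%, against 18.9% of all genes) and 2 towards the zygote (12.5%, against 8.09%), with a median log2 ratio of -0.08. With the GC trend removed Ncapd2 (0.68) and Nsmce4a (0.87) no longer passed towards PB2. Of the condensin genes, whose products compact chromosomes, Smc4 was measured at 340.1 TPM in the zygote against 720.5 TPM in PB2, for a log2 ratio of 1.08, and Ncapd2 had 1.0 and 3.8 TPM. Ncaph had 46.8 and 22.9 TPM and stood at 2-fold towards the zygote. Of the SMC5/6 genes, which act in repair, Nsmce3 was measured at 27.7 TPM in the zygote against 81.0 TPM in PB2, Nsmce4a had 85.7 and 200.9 TPM, and Nsmce2 had 541.4 and 232.2 TPM. Smc2 was looked up after its values were seen, as the partner of Smc4. It was measured at 33.4 TPM in the zygote against 35.6 TPM in PB2, so the ratio of Smc2 to Smc4 was 0.0982 in the zygote and 0.0494 in PB2, beside 0.789 and 0.375 for SMC1 to Smc3. In both heterodimers 1 partner was about 2-fold higher in PB2 and the other was not. Smc4 was named because it passed 2-fold, and 18.9% of all genes passed towards PB2. A partner that does not pass is therefore the common case, and the likeness of the 2 pairs is not read as a trait of them. In the third heterodimer, Smc6 had 245.5 and 247.8 TPM and Smc5 had 10.3 and 12.3 TPM.

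All but 1 of the members compared, Stag3, had a transcript with a GC content below the median of all genes. Across all genes compared, log2 ratio and GC content went together (Spearman's rho 0.44 over 10606 genes, a description across genes of the same 2 libraries). The members' transcripts had a GC content from 38.1% in Stag2 to 49.6% in Stag3, with a median of 41.9%, against 49.1% for all genes. With the trend on GC content removed, the median of the members was -0.04 and that of all genes 0.01. The transcript of Smc3 has a GC content of 42.3%, and removal of the trend took its log2 ratio up, from 1.02 to 1.23. Those of Smc1b, Rad21 and Wapl became 0.50, 0.25 and 0.31, and that of Smc1a became -0.18. The part of GC content in the amplification of these cDNAs was not tested. Over 7 other processing choices the log2 ratio of Smc3 ran from 0.67, with the trend on transcript length removed, to 1.23, and those of Smc1a, Stag1, Stag2, Stag3 and Pds5b kept below 0.

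**Figure D4:**
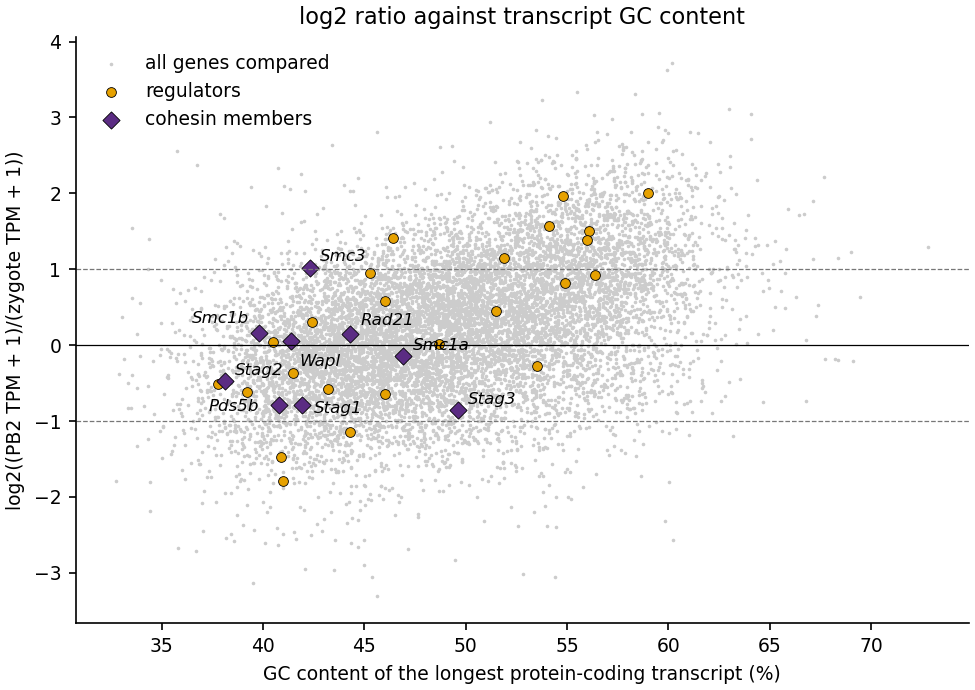
log2 ratio of PB2 over the zygote against the GC content of the longest protein-coding transcript for all genes compared that have one (grey), with the cohesin members as diamonds and the regulators as circles, and dashed lines at 2-fold. The members lie between 38.1% and 49.6% GC, all but Stag3 below the median of 49.1% of all genes, and Smc3, at 42.3%, lies on the upper dashed line.

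**Figure D5:**
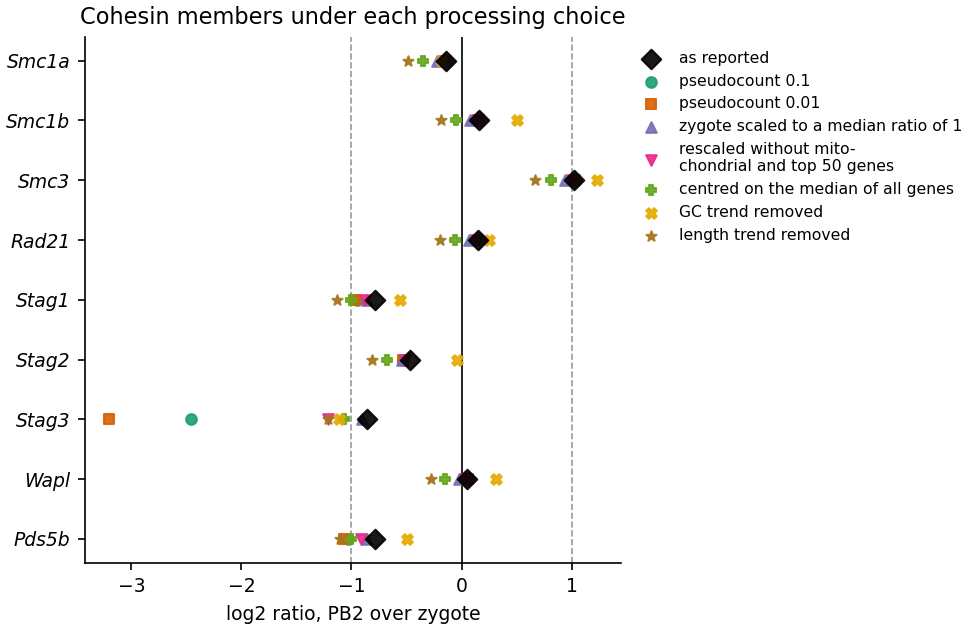
log2 ratio of each cohesin member as reported (black diamond) and under each of 7 other processing choices, with dashed lines at 2-fold. Smc3 is right of 0 and Stag1, Stag2, Stag3 and Pds5b are left of 0 under all of them, while Smc1b, Rad21 and Wapl cross 0.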

How the data were processed

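PB2 and the zygote were represented by 1 library each. According to the methods and the submitters' processing notes, the authors aligned reads with HISAT2 2.0.4 and counted them with HTSeq 0.6.1p1 on Ensembl annotation 85. The notes name the builds OryCun2.0 (rabbit) and GRCm38, while all identifiers are of mouse. The authors deposited TPM rounded to 1 decimal, and how it was made from counts is not given in the sources used here. TPM keeps no read number, so depth is unknown and no counting interval is given.

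The log2 ratio used a pseudocount of 1 over genes with at least 1 TPM in either library, with a threshold of 2-fold. Rounding intervals moved each value by 0.05 TPM. Transcript length and GC content came from the longest protein-coding transcript in GENCODE M21 (99.6% of genes compared), and trends were removed by lowess with a span of 0.3. Alternatives were 0.1 and 0.01 as pseudocount, 1.5-fold and 4-fold as threshold, filters at 0 and 5 TPM, scaling, rescaling, centring, trend removal and weighting by length.

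Named were all members with values, all regulators at least 2-fold apart, the most abundant regulator of each role, and the related SMC genes at least 2-fold apart or most abundant. Sgo1, Sgo2a, Esco1, Hdac8, Pds5a, Ppp2r5a, Ppp2r5e, Smc2, Smc5, Smc6 and the markers Oosp1 and Cyp19a1 were added to these after their values were seen. Members and lists were chosen with earlier results of these data known. The functions were tested on simulated data. Computation used Python 3.11.15 with matplotlib 3.10.9, statsmodels 0.14.6, scipy 1.17.1, pandas 2.3.3 and numpy 2.4.6.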

Additional observations from a re-analysis of the deposited data

How the results depend on the processing

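No paired analysis was possible because PB2 and the zygote were sequenced as 1 library each, so none could be left out. Of 129 values recomputed with other choices, 107 stayed within a set limit (1.5 times for a count, 0.5 for a single log2 ratio, 0.25 for a median, the rounding interval for a share) and 22 moved. The count of members higher in PB2 was 0 in place of 1 when zygote values were scaled by 1.06, with centring, with the length trend removed and at 4-fold. In place of 0, the count of members higher in the zygote was 2 with pseudocounts of 0.1 and 0.01 (Pds5b and Stag3), 1 with rescaling and with the GC trend removed (Stag3), and 3 with centring, with the length trend removed and at 1.5-fold (Pds5b, Stag1 and Stag3). Their median was -0.49 with the length trend removed, and 0.05 with the filter at 5 TPM, which left 7 of them. Regulators higher in PB2 numbered 3 with the GC trend removed, 11 at 1.5-fold and 1 at 4-fold (Ppp2r5b). Those higher in the zygote numbered 6 at 1.5-fold and 0 at 4-fold. With TPM multiplied by transcript length, a share is no longer one of transcripts. On that scale Smc1b made up 31.9% of the SMC1 sum in PB2 and 27.5% in the zygote, and Stag3 4.49% of the STAG sum in the zygote. The log2 ratio of Stag3 was -2.46 and -3.20 with pseudocounts of 0.1 and 0.01. The other 61 of 63 single ratios stayed within their limit. The change of threshold, centring and scaling move calls by construction, and for the other choices the cause was not tested. The share of all genes passing was computed only for the main setting, with centring and with the GC trend removed. Counts under the other choices have no such share beside them and are not read as a trait of the members or regulators. The share of Rec8 among kleisin transcripts was not computed. Depth is unknown, so counting error of genes at a few TPM or less, such as Stag3 and Pds5b, cannot be given.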
